A study of Mus musculus with 8 samples.

Results

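Cyclin-dependent kinase (CDK) inhibitors and the cyclins of the G1 phase were followed in 8 whole mouse hearts taken at E10.5, a midgestation stage. The 10 genes were chosen by symbol and found by Entrez ID among the 27179 genes of the deposited count table: the CIP/KIP inhibitors Cdkn1a and Cdkn1b, the INK4 inhibitors Cdkn2a, Cdkn2b, Cdkn2c and Cdkn2d, the D-type cyclins Ccnd1, Ccnd2 and Ccnd3, and the E-type cyclin Ccne1. A further CIP/KIP gene, Cdkn1c, was left out by the rule because it is imprinted. By the labels, 5 hearts were wild type (MOZ WT, Kat6a+/+) and 3 had lost both alleles of Kat6a, also called Moz (MOZ KO, Kat6a-/-). Kat6a encodes a histone acetyltransferase. No treatment, driver line or further allele is named in the labels, and they give no strain, litter, dissection day or sex. Each heart had its own library, and RNA of all its cell types was pooled in it, so fewer cells of a type and less RNA per cell cannot be told apart.

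Cells enter S phase once D-type cyclins with CDK4 or CDK6, and then E-type cyclins with CDK2, have phosphorylated the retinoblastoma proteins and released E2F transcription factors. INK4 proteins bind CDK4 and CDK6 and keep D-type cyclins off them, while CIP/KIP proteins bind the cyclin-CDK complexes themselves. In the embryonic heart, where most cardiomyocytes still divide, D-type cyclins are needed for growth of the myocardium. The Cdkn2a locus, which is silenced by Polycomb complexes in embryonic tissue, is known for its part in senescence, and loss of Kat6a is known to bring cultured fibroblasts into senescence through it. The comparison of MOZ KO with MOZ WT hearts therefore bears on whether transcripts of this brake and of its opponents differ in heart tissue.

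No member passed the test. Of the 10 members, 9 passed the filter on low counts and were tested, and 0 of these 9 had an adjusted p under 0.05 in the edgeR quasi-likelihood test (Benjamini-Hochberg over 15086 genes), where 2.67% of all genes tested did. An unadjusted p under 0.05 was found for 3 of the 9, Ccnd2, Ccne1 and Cdkn1a, and for 14.2% of all genes. Values of the 2 groups did not overlap for 1 member, Ccne1, against 9.59% of all genes. The median log2 fold change, MOZ KO over MOZ WT, was 0.03 over the 9 members and -0.0001 over all genes. The member nearest to the threshold was Ccnd2, which DESeq2 and limma voom did call. It was not called in 13 of 18 alternative fits.

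The locus that holds Cdkn2a and Cdkn2b is shown first, because its count merges products of separate starts. Transcripts from the distal start of Cdkn2a encode ARF, which stabilises p53, and those from the proximal start encode the INK4A inhibitor; a count per gene adds them up. Below are the 250 bases before each start, read 5′ to 3′ on the minus strand of GRCm38.p6 (RefSeq). Capitals mark matches to an E2F-type motif (TTTCCCGC, TTTCGCGC, TTTGCCGC or TTTGGCGC) or to the cyclic AMP response element (CRE, TGACGTCA), searched on both strands; the motifs do not overlap each other in these windows.
Cdkn2a, distal start, chr4:89294620-89294869: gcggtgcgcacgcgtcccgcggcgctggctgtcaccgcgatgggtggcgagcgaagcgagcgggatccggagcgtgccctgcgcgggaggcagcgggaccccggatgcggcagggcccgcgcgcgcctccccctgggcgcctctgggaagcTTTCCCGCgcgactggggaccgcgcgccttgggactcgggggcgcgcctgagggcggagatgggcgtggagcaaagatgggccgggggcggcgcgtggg
Cdkn2a, proximal start, chr4:89282193-89282442: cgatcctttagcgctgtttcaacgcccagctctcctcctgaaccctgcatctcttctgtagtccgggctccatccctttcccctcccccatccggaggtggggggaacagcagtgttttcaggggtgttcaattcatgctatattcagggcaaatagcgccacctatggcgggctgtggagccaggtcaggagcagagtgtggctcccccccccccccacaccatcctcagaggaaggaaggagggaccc
Cdkn2b, chr4:89311033-89311282: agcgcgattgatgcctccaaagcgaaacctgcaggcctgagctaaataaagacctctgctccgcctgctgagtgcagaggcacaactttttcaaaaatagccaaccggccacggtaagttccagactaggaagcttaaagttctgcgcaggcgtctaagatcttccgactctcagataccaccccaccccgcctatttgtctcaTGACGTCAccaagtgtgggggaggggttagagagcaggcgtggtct

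The window of the distal start held 1 E2F-type match, TTTCCCGC, whose first base lay 99 bases before the start. That of Cdkn2b held 1 CRE match, 46 bases before its start, and the window of the proximal start held neither. RefSeq windows were found for 8 of the 10 members, 12 windows in all, and no other window among these 12 held either motif. Over 32851 windows of the same length, 1.86% held an E2F-type match and 1.55% a CRE match. The distal window was the richest of the 12 in CpG dinucleotides, with 40, against 7 in the proximal window, 12 in that of Cdkn2b and a median of 6 over all windows. These matches describe the letters only.

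Levels are given as CPM, the usual read count unit corrected for library size, and differences as log2 fold changes with their standard error (SE). Libraries held 19911803 to 34539787 counts. Kat6a itself stood at 138 to 156 CPM in MOZ WT and 133 to 141 CPM in MOZ KO hearts. Its count covers the full gene and so is no check of the genotype. The library numbers in the labels run from 1 to 3 for MOZ KO and from 4 to 8 for MOZ WT hearts, and whatever order they stand for cannot be told apart from genotype. Heart markers were high in every library: 10 of 10 were tested, and their sum lay between 31650 and 34158 CPM in MOZ WT and between 34000.2 and 37315 CPM in MOZ KO hearts. Called were 2 of them, Ryr2 and Tnni3, which both rose, against 2.67% of all genes tested. An unadjusted p under 0.05 in edgeR was found for 7 of the 10, against 14.2% of all genes. Their log2 fold changes lay above 0 for 8 and below 0 for 2, with a median of 0.16. Of 10 markers of other tissues, 5 were tested and none was called. Neurod1, Myod1, Sftpc and Myog did not exceed 0.242 CPM. Pax6 and Afp were higher in all MOZ KO than in all MOZ WT hearts. Pax6 stood at 0.271 to 0.653 CPM in MOZ WT and 0.669 to 1.37 CPM in MOZ KO hearts (log2 fold change 1.21 ± 0.40 SE, adjusted p = 0.135 in edgeR). The sum over all 10 lay between 1.252 and 4.00 CPM in MOZ WT and between 3.66 and 17.0 CPM in MOZ KO hearts. The liver gene Afp reached 12.1 CPM in MOZ KO replicate 3, against a highest value of 1.04 CPM elsewhere. Alb had 27 counts in that heart, 4 in MOZ KO replicate 2 and 0 in the other 6 hearts. Ttr, of the same marker list, stood at 0.360 CPM in MOZ KO replicate 3, within the MOZ WT range of 0.271 to 0.808 CPM. The immediate early gene Egr1 stood at 55.7 CPM in MOZ KO replicate 1 against 10.99 to 15.3 CPM elsewhere. Of 6 red cell genes none was called, and their sum ranged from 3536 to 14502 CPM in MOZ WT and from 4925 to 8380 CPM in MOZ KO hearts. Xist, the RNA of the inactive X chromosome, stood at 307 and 301 CPM in MOZ WT replicates 4 and 5, the Xist-positive hearts, and at 0.372 CPM or less in the others. The part of these differences between hearts in the results below was not tested, beyond the fits without single hearts and without the 2 Xist-positive hearts.

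Among the inhibitors, the CIP/KIP genes come first. Cdkn1a (chromosome 17, 29090979 to 29100722, mm10) encodes p21, the inhibitor through which p53 halts the cycle. It stood at 22.1, 21.5, 21.6, 20.1 and 19.2 CPM in MOZ WT replicates 1 to 5 and at 24.7, 20.3 and 27.2 CPM in MOZ KO replicates 1 to 3. MOZ KO replicates 1 and 3 lay above all MOZ WT hearts, while replicate 2 lay within their range. The log2 fold change was 0.20 ± 0.09 (SE; 95% interval 0.01 to 0.40), which was not past the threshold (edgeR quasi-likelihood test, adjusted p = 0.321). It was 0.10 without MOZ KO replicate 3, the heart with the most Afp RNA, and 0.30 without MOZ KO replicate 2. Immediate early and heat shock genes had a median log2 fold change of 0.37, with 8 of 10 above 0 and none called. Their sums were 259 to 307 CPM in MOZ WT and 280.1 to 465 CPM in MOZ KO hearts. The 3 of smallest p, Jun, Atf3 and Egr1, were highest in MOZ KO replicate 1 (228, 32.9 and 55.7 CPM). In MOZ KO replicate 3, the highest heart for Cdkn1a, they stood at 134.7, 14.8 and 13.99 CPM, within the MOZ WT ranges. The part of these genes in the values of Cdkn1a was not tested.

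Cdkn1b (chromosome 6, 134920401 to 134925525) encodes p27, which holds CDK2 in check in resting cells. It stood at 46.1, 42.6, 40.4, 41.9 and 41.7 CPM in MOZ WT hearts and at 46.0, 41.6 and 43.0 CPM in MOZ KO hearts. The MOZ KO values all lay within the MOZ WT range. The log2 fold change of 0.03 ± 0.06 (SE) had a 95% interval of -0.10 to 0.17, so that a change of more than 1.12-fold upward or below 0.93-fold lay outside it. Cdkn1c, not a member, stood at 2743 ± 102 CPM (SD, n = 5) in MOZ WT and 2424 ± 141 CPM (SD, n = 3) in MOZ KO hearts. Its log2 fold change of -0.18 ± 0.05 (SE) was not past the threshold (edgeR quasi-likelihood test, adjusted p = 0.0662). Per kilobase of counted length Cdkn1c stood at 1412 CPM in MOZ WT hearts, where Cdkn1b had 17.7 and Cdkn1a 10.3.

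The INK4 genes spanned the widest range of levels. Cdkn2d (chromosome 9, 21288459 to 21291421), which encodes the INK4D protein, was the highest of the 4 also per gene length (41.0 CPM per kilobase in MOZ WT, against 5.16 for Cdkn2c), and stood at 55.1, 47.0, 52.1, 51.2 and 55.0 CPM in MOZ WT and 52.9, 50.7 and 56.004 CPM in MOZ KO hearts. The groups overlapped, with a log2 fold change of 0.03 ± 0.06 (SE; 95% interval -0.10 to 0.16). Cdkn2c (chromosome 4, 109660876 to 109666756), the gene of INK4C, stood at 3.79, 5.65, 6.79, 6.74 and 5.58 CPM in MOZ WT and at 7.26, 6.76 and 5.94 CPM in MOZ KO hearts. MOZ WT replicate 1 was the lowest heart for this gene, and without it the log2 fold change went from 0.22 ± 0.17 to 0.10. The 95% interval of Cdkn2c reached from -0.13 to 0.58, so it was measured less tightly than Cdkn2d. Counts of Cdkn2c were 112 to 234 per heart. Its coefficient of variation among MOZ WT hearts was 21.3%, where counting error alone gives 8.27%.

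Cdkn2a and Cdkn2b were barely detected in hearts of both genotypes. Cdkn2a (chromosome 4, 89274473 to 89294619) had 7, 3, 3, 2 and 1 counts in MOZ WT and 11, 1 and 4 counts in MOZ KO replicates 1 to 3, and stayed under the filter. Summed over hearts this made 16 counts in each group, or 0.121 CPM in MOZ WT (exact Poisson 95% interval 0.0689 to 0.196) and 0.223 CPM in MOZ KO (0.127 to 0.362); such intervals cover counting error only. MOZ KO replicate 1, the heart with high Egr1 RNA, gave 68.8% of the MOZ KO counts. Without it the MOZ KO hearts stood at 0.119 CPM, against 0.121 CPM in MOZ WT. Mean CPM did not separate the genotypes in an exact permutation test over the 8 hearts (two-sided, p = 0.357), for which the smallest possible p is 0.0357. With no filter, edgeR's quasi-likelihood fit gave Cdkn2a a value of 0.77 ± 0.84 (log2, SE; adjusted p = 0.762).

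Cdkn2b (chromosome 4, 89306289 to 89311032), which encodes INK4B, a mediator of growth arrest by TGF-beta, had 17, 29, 30, 15 and 11 counts in MOZ WT and 47, 17 and 10 in MOZ KO hearts. In CPM these were 0.575, 1.39, 0.870, 0.653 and 0.444 against 1.57, 0.864 and 0.450. The groups overlapped fully but for MOZ KO replicate 1, which again was the highest heart. Over all hearts the log2 fold change of 0.34 ± 0.43 (SE) did not pass (adjusted p = 0.798 in edgeR), and it was -0.26 ± 0.52 without MOZ KO replicate 1. The 95% interval over all hearts ran from 0.68-fold to 2.36-fold, so changes within these bounds are not excluded. The exact permutation test gave p = 0.607 (two-sided). Cdkn2b lies within the span of the long noncoding gene Gm12610, and reads of the 2 genes cannot be told apart where the strand setting of the counting is not given.

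**Figure D1:**
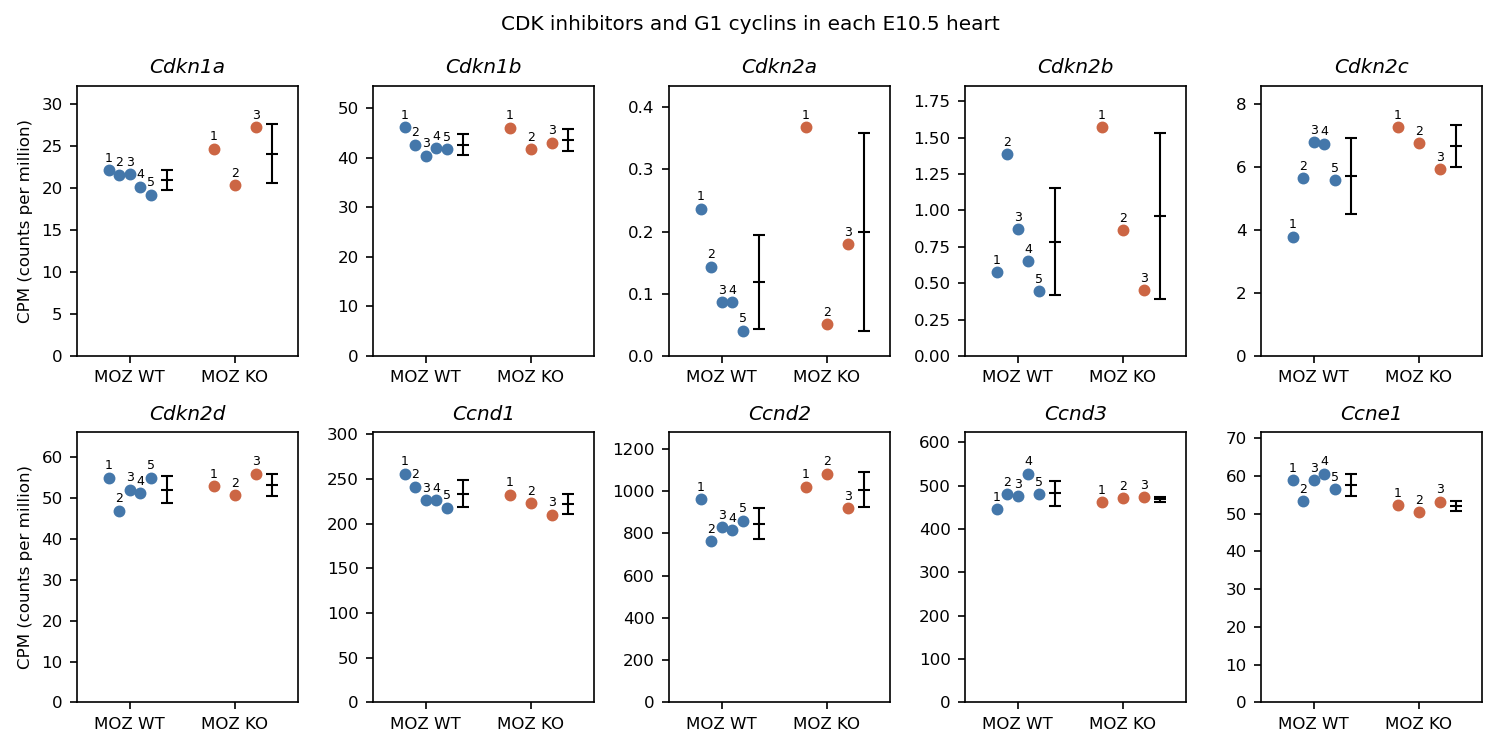
CPM (y axis, from 0) of the 10 members in each MOZ WT (5) and MOZ KO (3) heart; points are hearts with their replicate number, and black marks are the mean with its SD. The groups overlap in 9 panels, and in that of Ccne1 the 3 MOZ KO hearts lie just under the lowest MOZ WT heart.

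The cyclins include the members of highest level. Ccnd2 (chromosome 6, 127125162 to 127152188) encodes cyclin D2. It stood at 960.4, 764, 829, 815 and 859.6 CPM in MOZ WT replicates 1 to 5 and at 1021, 1083 and 919 CPM in MOZ KO replicates 1 to 3. MOZ KO replicates 1 and 2 lay above every MOZ WT heart, and MOZ KO replicate 3 lay above all but MOZ WT replicate 1. The log2 fold change was 0.25 ± 0.07 (SE), or 1.19-fold with a 95% interval of 1.08 to 1.32. Adjusted over all genes this was just short of the threshold (edgeR quasi-likelihood test, adjusted p = 0.0637).

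Whether Ccnd2 is called depended on the method and on single hearts. It passed with DESeq2 (adjusted p = 0.00944, where 3.85% of all genes were called), with limma voom with quality weights (0.0395, where 2.91% were called) and with upper-quartile scaling in edgeR (0.0489). It passed in the edgeR quasi-likelihood test without MOZ WT replicate 1 (adjusted p = 0.00311) or without MOZ KO replicate 3 (0.0355), and moved away from the threshold without MOZ KO replicate 2 (log2 fold change 0.19, adjusted p = 0.245) or without the 2 Xist-positive hearts (0.24, adjusted p = 0.244). Without MOZ KO replicate 1 the adjusted p was 0.240 in the same test. In all, Ccnd2 was called in 5 of the 18 alternative fits and not in the other 13. The log2 fold change of Ccnd2 stayed above 0 in all 18, between 0.19 and 0.31. The span of Ccnd2 shares 2800 bases with the long noncoding gene 9330179D12Rik, which had 6 to 19 counts per heart.

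Ccnd1 (chromosome 7, 144929931 to 144939831), the gene of cyclin D1, a common target of mitogen signalling, stood at 256, 241, 226, 226 and 218 CPM in MOZ WT and at 232, 223 and 210.1 CPM in MOZ KO hearts. The groups overlapped, with MOZ KO replicate 3 as the lowest heart. Ccnd1 differed by -0.07 ± 0.05 on the log2 scale (SE; 95% interval -0.19 to 0.04; adjusted p = 0.580 in edgeR). Ccnd3 (chromosome 17, 47505051 to 47599689), the gene of cyclin D3, stood at 447, 480.4, 476, 528 and 480.4 CPM in MOZ WT and at 462, 472 and 474 CPM in MOZ KO hearts. All MOZ KO values of Ccnd3 lay inside the MOZ WT range, with a log2 fold change of -0.04 ± 0.05 (SE; 95% interval -0.14 to 0.06). With the 2 Xist-positive hearts left out this was 0.0042. It was 0.0049 with a replicate block, in which these 2 hearts had no MOZ KO partner and so no weight. The span of Ccnd1 shares 818 bases with LTO1 (346 to 699 counts per heart) and that of Ccnd3 shares 359 bases with Bysl (1420 to 2915 counts) and 7217 bases with the long noncoding gene Gm41590, and their counts are uncertain there.

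Ccne1 (chromosome 7, 38097984 to 38107490) encodes cyclin E1, the partner of CDK2 at the entry into S phase and itself a target of E2F. It stood at 58.9, 53.2, 58.9, 60.6 and 56.5 CPM in MOZ WT and at 52.2, 50.4 and 53.1 CPM in MOZ KO hearts. The 3 MOZ KO hearts lay below all 5 MOZ WT hearts, though the gap between MOZ KO replicate 3 and MOZ WT replicate 2 was only that between 53.12 and 53.24 CPM. The log2 fold change was -0.15 ± 0.06 (SE; 95% interval -0.27 to -0.03), which was not past the threshold (edgeR quasi-likelihood test, adjusted p = 0.218), and its adjusted p ranged from 0.124 to 0.503 over 18 alternative fits. Ccne2, the other E-type cyclin, had a log2 fold change of -0.12 ± 0.08 (SE) and stood at 30.2 ± 0.694 CPM (SD, n = 5) in MOZ WT and 27.8 ± 3.25 CPM (SD, n = 3) in MOZ KO hearts.

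**Figure D2:**
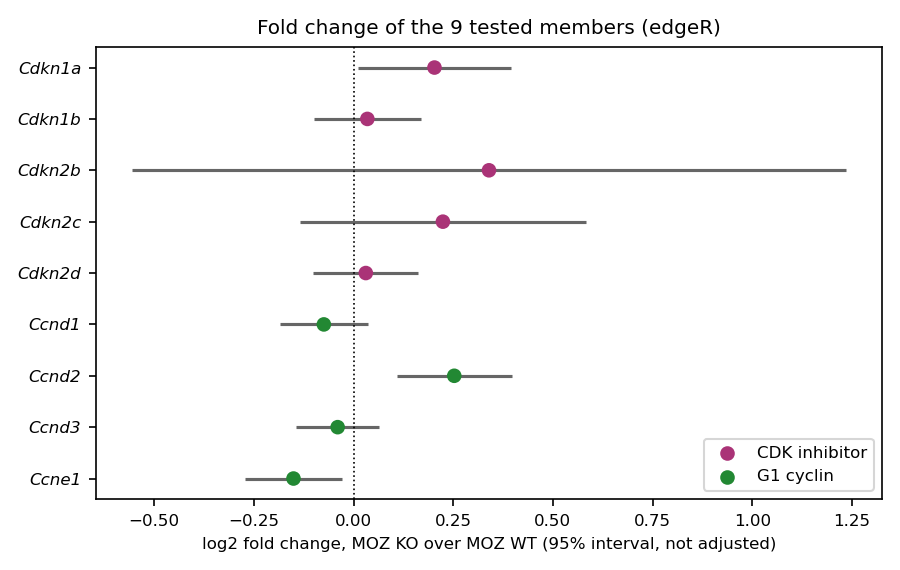
Log2 fold change of the 9 members tested, MOZ KO over MOZ WT (x axis), with 95% intervals not adjusted for the number of genes; colours mark CDK inhibitors and G1 cyclins. The intervals of Ccnd2, Cdkn1a and Ccne1 leave out 0, and that of Cdkn2b, from -0.56 to 1.24, is the widest.

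Precision differed widely between members. For 8 of the 9 tested members the whole 95% interval lay within 2-fold in either direction, the exception being Cdkn2b. Among MOZ WT hearts the coefficient of variation was 4.94% for Ccne1, 5.04% for Cdkn1b and 8.64% for Ccnd2, where counting error alone gives 0.676% for Ccnd2. For Ccnd1 and Ccnd3 it was 6.46% and 6.04%, where counting error gives 1.29% and 0.900%, so the spread between hearts was the larger part of the error for D-type cyclins. For Cdkn2a the coefficient of variation was 63.3% where counting error alone gives 56.8%. Cdkn2b and Cdkn2c lay between these, at 47.1% and 21.3%, with counting error alone at 22.6% and 8.27%.

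To compare levels between genes, CPM were divided by the counted gene length in kilobases. The order of the 10 members was then the same in all 8 hearts, and no 2 neighbours in it overlapped among the MOZ WT hearts. Ccnd3 stood first, with 213 ± 12.9 CPM per kilobase in MOZ WT (SD, n = 5) and 208 ± 2.64 in MOZ KO hearts (SD, n = 3). Ccnd2, first by CPM without division by length, followed with 146 ± 12.6 and 175 ± 14.3 CPM per kilobase. Ccnd1 had 61.5 ± 3.98 and 58.4 ± 2.96 CPM per kilobase. Cdkn2d, with 41.0 ± 2.62 CPM per kilobase in MOZ WT, was the highest inhibitor among the members and lay above Ccne1, with 29.5 ± 1.46. Cdkn1b (17.7 ± 0.892), Cdkn1a (10.3 ± 0.603) and Cdkn2c (5.16 ± 1.10 CPM per kilobase) came next. Cdkn2b and Cdkn2a closed the order at 0.564 ± 0.266 and 0.105 ± 0.0663 CPM per kilobase.

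**Figure D3:**
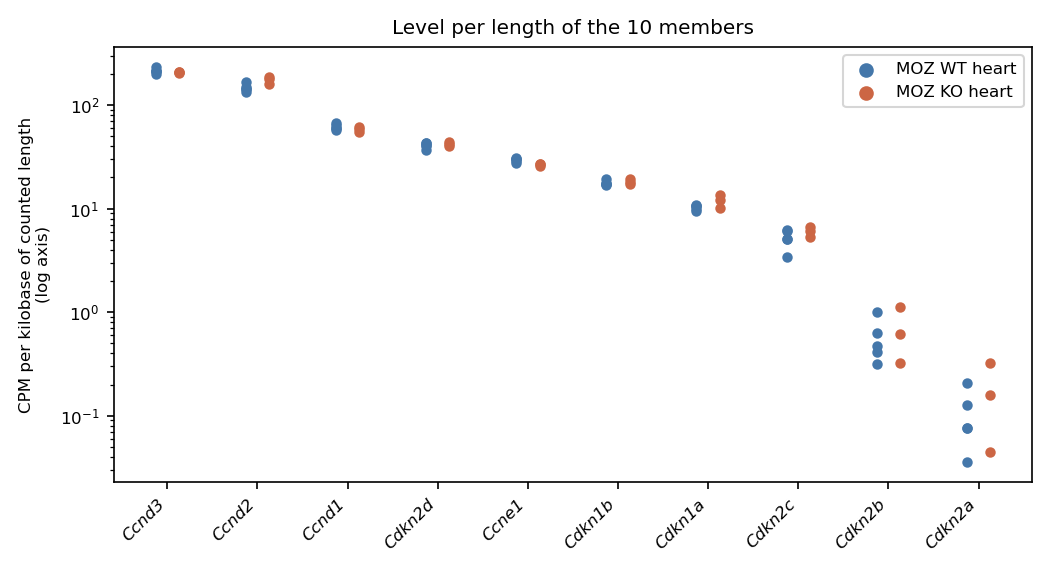
CPM per kilobase of counted length (log axis) of the 10 members in each heart, ordered by the MOZ WT mean. D-type cyclins lie at the top, from 213 for Ccnd3 to 61.5 for Ccnd1, and Cdkn2a lies at the bottom at 0.105.

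The summed level of the D-type cyclins was 421 ± 11.1 CPM per kilobase in MOZ WT (SD, n = 5) and 440.5 ± 15.6 in MOZ KO hearts (SD, n = 3). Within it, Ccnd2 took 38.6, 32.4, 34.7, 32.5 and 35.6% in MOZ WT replicates 1 to 5 and 40.0, 41.2 and 37.5% in MOZ KO replicates 1 to 3. MOZ WT replicate 1 was the only MOZ WT heart inside the MOZ KO range. The share of Ccnd3 was 45.8 to 53.8% in MOZ WT and 45.9 to 49.4% in MOZ KO hearts, and that of Ccnd1 13.7 to 15.6% and 12.9 to 13.8%. These shares rest on the values given above and on 1 counted length per gene, 5772 bases for Ccnd2 and 2261 for Ccnd3. By CPM without division by length, Ccnd2 stood above Ccnd3 and Ccnd1 in each heart. The shares were not tested.

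**Figure D4:**
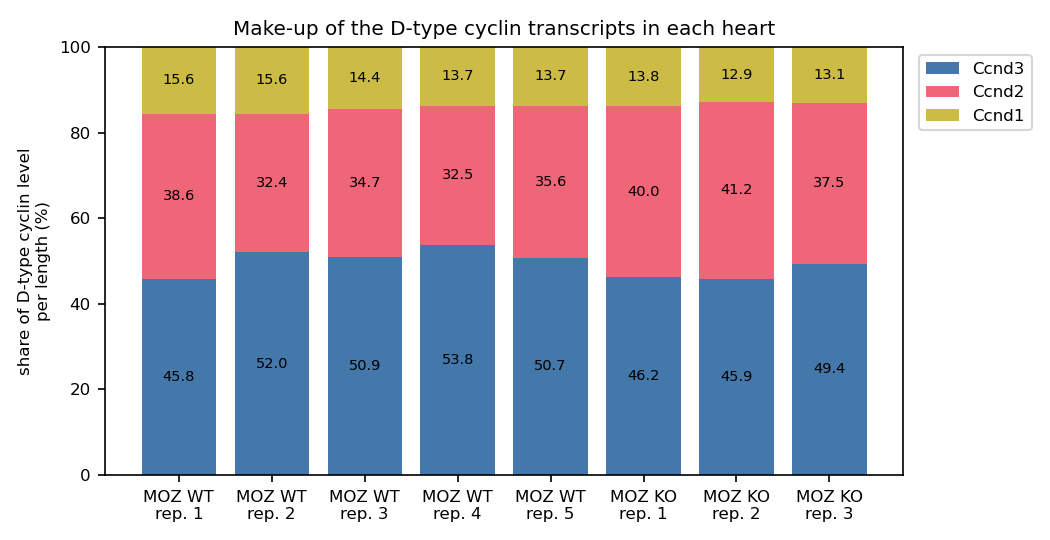
Share (%, y axis) of Ccnd3, Ccnd2 and Ccnd1 in the summed D-type cyclin level per length, 1 bar per heart. Ccnd3 is the largest share in each heart once levels are divided by counted length, and that of Ccnd2 lies between 32.4 and 41.2%.

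MOZ WT replicate 1 stood at an end of the MOZ WT range for several members. It was the highest MOZ WT heart for Cdkn1a, Cdkn1b, Cdkn2a, Cdkn2d, Ccnd1 and Ccnd2 and the lowest for Cdkn2c and Ccnd3. Dixon's test found no outlier among the 5 MOZ WT hearts for any of the 10 members, and groups of 3 were not tested.

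None of the genes that the inhibitors and cyclins act with passed the test. Of 28 genes of the G1/S machinery, 0 were called by edgeR, DESeq2 or limma voom. In edgeR 1 had an unadjusted p under 0.05, against 14.2% of all genes. The log2 fold changes were -0.16 to 0.11, with a median of -0.01. The 3 of smallest p were Fbxo31, an F-box protein that directs degradation of cyclin D1 (-0.16 ± 0.07 SE), E2f3 (-0.11 ± 0.06) and the retinoblastoma relative Rbl1 (0.09 ± 0.06). The kinase partners of the members were looked up after their values were seen. Cdk4 stood at 367 ± 6.29 CPM per kilobase in MOZ WT (SD, n = 5) and 365 ± 16.8 in MOZ KO hearts (SD, n = 3), far above Cdk6 with 5.69 ± 0.660 and 5.86 ± 0.828. Cdk2 stood at 33.4 ± 0.999 and 33.3 ± 2.22 CPM per kilobase.

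Transcripts of genes downstream of E2F were compared next, while E2F activity itself was not measured. Of 24 E2F-regulated genes, many of DNA replication, 0 were called in edgeR (7 had an unadjusted p under 0.05, against 14.2% of all genes). But 21 had a log2 fold change under 0, as 50.1% of all genes did, with a median of -0.07. The nearest to the threshold were Mybl2 (-0.25 ± 0.07 SE, adjusted p = 0.0710) and the replicative helicase subunit Mcm2 (-0.16 ± 0.05, adjusted p = 0.0780 in edgeR). Both were called by DESeq2 and by edgeR without MOZ WT replicate 2, and Mybl2 also by edgeR with no count filter. Mcm7, of the same helicase, had -0.14 ± 0.05. Of 14 genes of G2 and mitosis 0 were called by edgeR, DESeq2 or limma voom. In edgeR 2 had an unadjusted p under 0.05, against 14.2% of all genes, and 13 lay under 0, with a median of -0.07. The phosphatase gene Cdc25c had -0.22 ± 0.10, and the mitotic kinase genes Plk1 and Bub1 had -0.12 ± 0.05 and -0.09 ± 0.05 (log2, SE). Fold changes of these lists and of Ccne1 come from the same hearts and are not independent. Ccna2 is counted in both lists and in that of the G1/S machinery. Ccne2 is counted among the E2F-regulated genes and in the G1/S machinery.

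Cdkn1a is a target of p53. Of 22 further genes, p53 itself and its targets, 0 were called by edgeR, DESeq2 or limma voom. In edgeR 4 had an unadjusted p under 0.05, against 14.2% of all genes. A log2 fold change above 0 was found for 11 and below 0 for 11, with a median of -0.01. Phlda3, an inhibitor of AKT induced by p53, had a log2 fold change of -0.17 ± 0.06 (SE). The antiproliferative gene Btg2 had 0.31 ± 0.12, and Trp53 itself -0.13 ± 0.06.

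Of 23 regulators of the Cdkn2a locus, Polycomb subunits and transcription factors, 1 rose, 1 fell and 21 did not pass. Over all genes tested, 2.67% passed. Bmi1, a Polycomb subunit that represses Cdkn2a, rose from 31.9 ± 2.43 CPM (SD, n = 5) in MOZ WT to 46.1 ± 1.17 CPM (SD, n = 3) in MOZ KO hearts. This is a log2 fold change of 0.54 ± 0.07 (SE; adjusted p = 0.000144 in edgeR), and Bmi1 was called in all 18 alternative fits. Twist1, a transcription factor that can hold down Cdkn2a, fell from 63.2 ± 3.76 to 45.5 ± 3.74 CPM, a log2 fold change of -0.48 ± 0.07 (SE; adjusted p = 0.000254), and was also called in all 18. The median over the list was -0.02. In edgeR 6 of the 23 had an unadjusted p under 0.05, against 14.2% of all genes. Bmi1 and Twist1 were among them. The others, Phc1 (log2 fold change -0.18 ± 0.05 SE), Cbx2 (-0.21 ± 0.07), Tbx2 (0.16 ± 0.07) and Tbx3 (0.24 ± 0.11), were not called. The neighbours of the locus did not pass: the log2 fold change of Mtap was -0.05 ± 0.06 and that of Dmrta1, a gene of under 2.4 CPM in every heart, 0.76 ± 0.29 (SE; adjusted p = 0.210 in edgeR).

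Of the 17 genes reported here that carry mitogen and developmental signals to the D-type cyclins, 0 were called by edgeR, DESeq2 or limma voom. In edgeR 6 had an unadjusted p under 0.05, against 14.2% of all genes. The log2 fold change was above 0 for 9 and below for 8, with a median of 0.01. The homeobox gene Meis1 had -0.19 ± 0.06 (SE; adjusted p = 0.133 in edgeR). Foxm1, a transcription factor of cell cycle genes, had -0.15 ± 0.06, and Tead1, the DNA-binding partner of YAP, had -0.12 ± 0.05. Foxm1 was called without MOZ WT replicate 2.

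**Figure D5:**
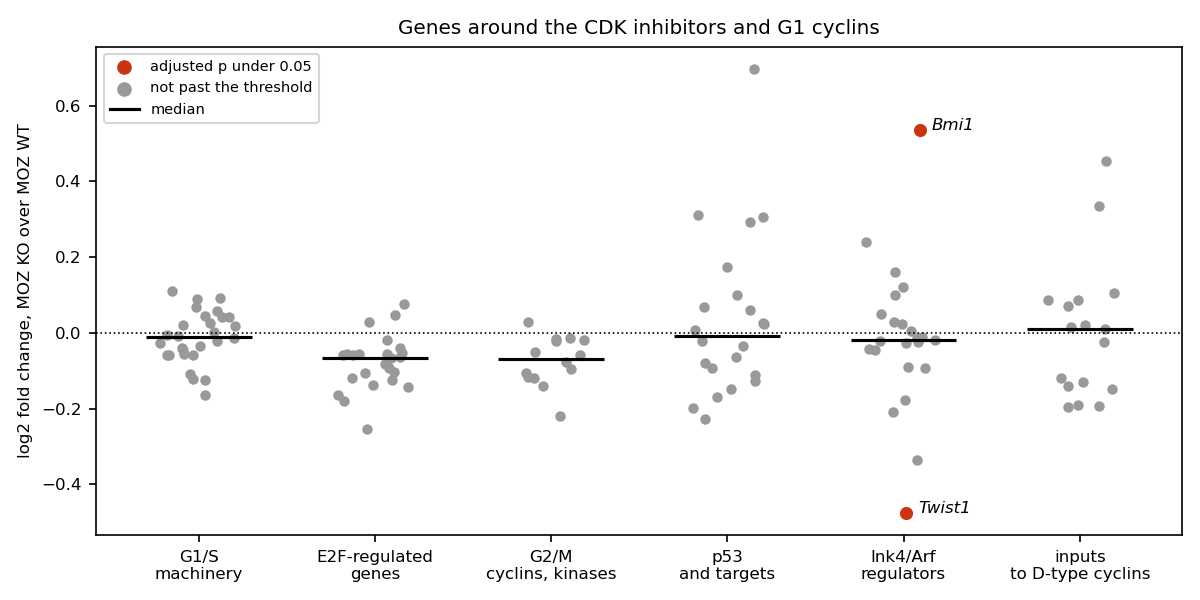
Log2 fold change, MOZ KO over MOZ WT (y axis), of the genes of 6 lists around the members; grey points did not pass the threshold, red points did, and black lines are medians. The 2 red points are Bmi1 above 0 and Twist1 below it.

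The genes whose pattern over the 8 hearts was most like that of Ccnd2, the member of smallest p, were taken among 12753 genes of at least 1 average log2 CPM. Among the nearest were 9330151L19Rik and the kinetochore gene Ndc80, each with a Pearson r of 0.97 over 8 hearts on the log2 CPM scale. Their own log2 fold changes were 0.26 ± 0.21 and 0.10 ± 0.06 (SE), and neither was called. The r values are descriptions, and all genes of a heart share its library depth and scaling.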

How the data were processed

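RNA of 8 hearts was isolated with a column kit and made into stranded libraries, per the labels' protocols. The submitters' processing notes name bcl2fastq, featureCounts and mm10. The aligner, the annotation, the strand setting and all versions were not given in the sources used here. As deposited by the authors, the values are whole read counts for each Entrez ID beside a gene length, and the single-heart files hold the same counts as the table of the whole series. Symbols and positions came from RefSeq genes of GRCm38.p6, the assembly of mm10, which named 25275 of 27179 IDs.

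Genes were filtered with filterByExpr (15086 kept) and scaled by trimmed mean of M values. MOZ KO was tested against MOZ WT over all 8 hearts with edgeR 4.0.16 (quasi-likelihood, robust, no covariate, Benjamini-Hochberg, threshold 0.05) in R 4.3.3, with DESeq2 1.42.0 and limma 3.58.1 as alternatives. The other alternatives were 2 scalings, 2 count filters, no robust moderation, a replicate block, Xist as a covariate, and fits without the 2 Xist-positive hearts or without each heart in turn. The SE of a fold change was derived from it and the F statistic, and 95% intervals follow from the SE. Cdkn2a and Cdkn2b were also compared by an exact permutation test over hearts. Members and lists were chosen with earlier results of these data known. Named genes are the members, every called gene of a list (otherwise the 3 of smallest p), and the 3 genes most like the member of smallest p. Ttr, the kinase partners and the uncalled regulators of Cdkn2a were named after their values were seen. A gene of the list of inputs to D-type cyclins and a gene among the most alike are not reported here, and counts for that list and over the pathway lists leave the former out.

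In simulated counts for this comparison (14944 genes), the test recovered 48% of changes by 1.25-fold, 82% at 1.5-fold and 88% at 2-fold, all in genes of at least 1 CPM, and 16 of 173 calls were false. Each of the 28 library pairs differed beyond sampling noise. No label says that the hearts came from separate litters, so that p-values reflect only how far these hearts vary.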

Additional observations from a re-analysis of the deposited data

How the results depend on the processing

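The count of members called was 0 and became 1, Ccnd2, with DESeq2 (1), limma voom (1) and upper-quartile scaling (1), and 0 to 1 on leaving out single hearts (1 without MOZ WT replicate 1 or MOZ KO replicate 3). It stayed 0 in 13 of the 18 alternative fits. The 2 called genes of the pathway lists became 4 with DESeq2, which added Mcm2 and Mybl2, 3 with no count filter, which added Mybl2, and 2 to 5 without single hearts (5 without MOZ WT replicate 2, which added Foxm1, Mcm2 and Mybl2). Over all genes, 403 were called, 194 to 496 without single hearts (194 without MOZ KO replicate 1, 263 without MOZ KO replicate 3) and 181 with a replicate block. The titles number the hearts, but same-numbered hearts did not deviate together (r across genes 0.07, -0.12 and -0.05), and none of the MOZ KO hearts correlated best with its own number; the block changed the call of no member. The 2 Xist-positive hearts had no MOZ KO heart of their number. In the genotype term they thus had no weight with the block, and little with Xist as a covariate. Both fits are therefore close to the one without these hearts and are no separate checks. The log2 fold change of Ccnd3 turned to 0.0049 with the replicate block, 0.0053 with Xist as a covariate and 0.0042 without the 2 Xist-positive hearts. Without single hearts it ranged from -0.0081 to 0.065 for Cdkn1b, from -0.012 to 0.059 for Cdkn2d and from -0.26 to 0.67 for Cdkn2b, turning negative without MOZ KO replicate 1 (Cdkn1b, Cdkn2b), MOZ WT replicate 2 or MOZ KO replicate 3 (Cdkn2d). The difference in mean CPM ranged from -0.0036 to 0.155 for Cdkn2a and from -0.129 to 0.432 for Cdkn2b, and was negative without MOZ KO replicate 1. The cause of these shifts was not tested. Ccnd1, Ccne1, Cdkn1a and Cdkn2c kept their direction and stayed short of the threshold in all 18 alternative fits. Counting error made up most of the spread among MOZ WT hearts for Cdkn2a (coefficient of variation 63.3%, and 56.8% from counting alone), but not for Cdkn2b (47.1% and 22.6%) or Cdkn2c (21.3% and 8.27%).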
